A study of Sus scrofa with 14 samples.

Results

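Milk T and NK cells are the lymphocytes that leave the mammary gland with the milk. They were picked cell by cell from 2 single-cell libraries of pig milk, 1 of colostrum (L0, day 0 of lactation) and 1 of mature milk (L20, day 20). A cell counted as a member when it had 300 genes or more, mitochondrial UMIs of 25% or less, a UMI in at least 3 of 8 genes (CD3D, CD3E, CD2, GNLY, CTSW, GZMA_2, XCL1 and CST7) and 0 UMIs summed over CLDN4, EPCAM, MMP8 and GPNMB, which mark epithelium, neutrophils and macrophages. A UMI is a tag that marks 1 captured RNA molecule. In all, 1079 of 32085 kept milk cells were members (3.36%), 240 of 17571 at L0 and 839 of 14514 at L20. The whole series held 158918 kept cells and nuclei in 12 libraries.

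The sows were multiparous and in the second breeding cycle, and the labels and methods name no treatment that sets the groups apart. The study sequenced nuclei of mammary glands at day 90 of gestation (G90), L0, L20 and at 2 (PI2) and 7 days (PI7) after natural involution, from 2 sows per stage. Milk was sampled 1 time at each of L0 and L20, and neither sample is tied to a sow in the sources used here, so stage, animal and library cannot be told apart. The labels give mammary gland as the tissue of the milk libraries, while the methods describe cells of fresh colostrum and mature milk. With 1 library per stage no test between L0 and L20 was possible: levels are given in UMIs per 1000000 UMIs of the members (CPM) with an exact 95% Poisson interval, and shares of cells with an exact 95% binomial interval. Both cover counting error only and not the spread between sows.

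T cells recognise antigen through a receptor that signals through the CD3 chains, and natural killer (NK) cells act through germline-encoded receptors such as NKG2D (KLRK1) and NKp46 (NCR1). Both kill target cells by releasing granules with perforin, granzymes and granulysin, and both secrete chemokines. Lymphocytes reach milk through the epithelium of the gland, where some of them reside, and they are taken up by the suckling young.

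The member UMIs summed to 464066 at L0 and 1710449 at L20. A member held a median of 1777.5 UMIs at L0 and 1731 at L20, and mitochondrial UMIs were a median of 4.89% and 4.49%. The libraries shared 284 of 22257 and 18733 barcodes, and 0 of these were members in both. The rule left out 29 cells at L0 and 44 at L20 that had 3 rule genes and an excluded gene. Just inside the threshold, 62 L0 and 266 L20 members had exactly 3 rule genes, with a CCL5 level of 12814 and 9372 CPM. Just outside it, 52 and 246 cells had exactly 2, with a CCL5 level of 9383 and 4517 CPM. Members made up 1.37% (1.20 to 1.55%) of the kept cells at L0 and 5.78% (5.41 to 6.17%) at L20, a ratio of 4.23. This ratio was 5.33 in cells of 500 genes or more with 10% mitochondrial UMIs or less, with shares of 2.39% and 12.7%.

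LCK, TRAT1 and KLRK1, which the rule did not use, were higher in the members than in the other milk cells of both libraries. FCER1G and CD69, which myeloid cells also express, were not higher at L20, with 205 and 664 CPM in the members against 1503 and 752 in the others. LCK, the kinase that starts receptor signalling, was at 226 CPM at L0 and 293 at L20 against 0.919 and 5.97 CPM in the other milk cells. TRAT1, an adaptor of the receptor complex, was at 711 CPM at L0 and 548 at L20 against 2.14 and 10.4 CPM in the others. KLRK1 was at 871 CPM at L0 and 365 at L20 against 2.37 and 3.47. The B cell markers MS4A1 (0 UMIs at L0 and 4 at L20) and CD79B (0 and 1) were at or near 0. Other genes of the B and plasma cell list were not: JCHAIN had 21 UMIs at L0 and 30 at L20, and XBP1 had 79 and 164.

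Free RNA of secretory cells can enter any droplet of milk. CSN2, the gene of beta-casein, was at 4874 CPM at L0 and 776 at L20 in the members, which equals 5.39% and 2.23% of its level in the other milk cells. These shares, multiplied by the level of a gene in the other milk cells, are called its free level here. They give the 14 measured genes of the milk epithelium list a summed free level of 8862 CPM at L0 and 1439 CPM at L20. The members had 8501 and 1447 CPM, sums that CSN2 leads, and CSN2 equals its free level by construction. All 7 of these genes with at least 20 UMIs were at least 2-fold lower at L20. CSN1S1, another casein, was at 1552 CPM at L0 and 241 at L20 against a free level of 1127 and 247 CPM, and CSN3, a further casein, lay below its free level, at 989 CPM at L0 and 185 at L20 against 1551 and 195 CPM. The Poisson interval lay wholly above the free level for 2 of the 14 genes at L0 and for 4 at L20. FASN, of fatty acid synthesis, was at 10.5 CPM at L20 against 1.72. Of the macrophage list, 12 of 14 genes were measured and their sum was 235 CPM at L0 (free level 81.5) and 384 CPM at L20 (free level 112). S100A12, a neutrophil gene, was at 749.9 CPM at L0 and 266 at L20 against a free level of 254 and 129. Of the neutrophil list 3 of 5 genes with 20 UMIs were lower at L20, of the macrophage list 4 of 9 were higher, and of the B and plasma cell list 1 of 2 was lower. The mast cell list had 13 UMIs at L0 and 18 at L20, with 0 genes at 20 UMIs. A UMI of CD68, C1QA, C1QB, C1QC, CSF1R or S100A8 was seen in 36 of 240 L0 members and 117 of 839 L20 members.

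Between the libraries, 7234 genes had at least 20 UMIs summed over the members. Of these, 689 (9.52%) were at least 2-fold higher at L20 and 504 (6.97%) at least 2-fold lower. When the Poisson intervals also had to be apart, 245 (3.39%) were higher and 283 (3.91%) lower, so the larger side depended on this demand. The median gene lay at a log2 ratio of 0.044, and TMM scaling moved this median to 0.157. With TMM scaling 819 genes were at least 2-fold higher at L20 and 416 lower. CCL5 sat near the line of equal levels, while XCL1, ZNF683 and HSP70.2 lay far below it and MX1, IFI6 and CCL3L1 far above.

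**Figure D1:**
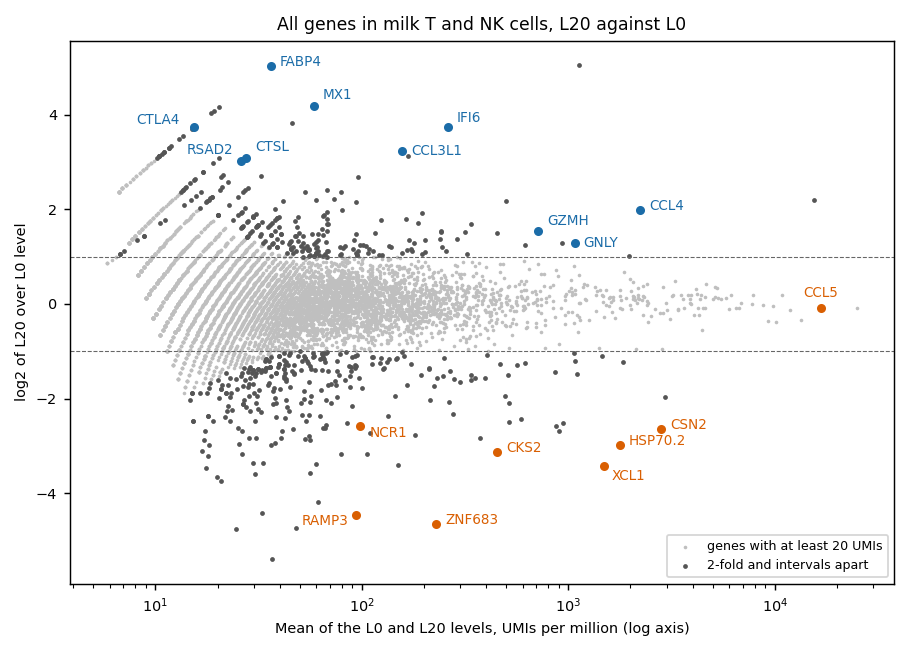
Each point is 1 of 7234 genes in milk T and NK cells, with its mean level in UMIs per 1000000 on the horizontal log axis and the log2 ratio of L20 to L0 on the vertical axis; dashed lines mark 2-fold. Genes with 0 UMIs at L0 are drawn at the lower bound of their ratio, and named genes are blue where higher at L20 and orange where lower.

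The 8 rule genes were detected in both libraries, and their values describe the choice of cells. CD3D, a chain of the CD3 complex, was at 748 CPM (671 to 831) at L0 and 678 (639 to 718) at L20, and CD3E at 476 CPM (416 to 543) at L0 and 623 (586 to 662) at L20. CD2, an adhesion receptor of T and NK cells, was at 664 CPM at L0 and 869 at L20 and CST7, an inhibitor of granule proteases, at 711 CPM at L0 and 913 at L20. GZMA_2, a copy of the granzyme A gene, was at 711 CPM at L0 and 1068 at L20. CTSW, a protease of cytotoxic lymphocytes, was at 2809.9 CPM at L0 and 1449 at L20, 1.94-fold lower at L20. The rule genes that differed at least 2-fold were GNLY, higher at L20, and XCL1, lower at L20.

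In the list of the T cell receptor and its signalling, 15 of 22 genes were measured and 14 had at least 20 UMIs. Of these 14, 3 were at least 2-fold higher at L20 against 0 lower. The median log2 ratio of the 14 genes was 0.38, beside 0.044 over all genes tested. CD5, which tunes receptor signals, was at 149 CPM (116 to 188) at L0 and 341 (314 to 369.7) at L20, and 17.1% and 37.4% of members had a UMI of it. CD28, the costimulatory receptor, had 12 UMIs at L0 and 120 at L20, a ratio of 2.71, and THEMIS, a signalling protein of T cells, was at 23.7 CPM at L0 and 49.1 at L20. CD247 (351 CPM at L0 and 275 at L20) and ZAP70 (134 CPM at L0 and 148 at L20) stayed within 2-fold. The receptor constant genes TRAC, TRBC1, TRBC2, TRDC and TRGC1 were not analysed here, so alpha beta and gamma delta T cells could not be separated.

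CD8A, the alpha chain of CD8, was at 237 CPM at L0 and 274 at L20, in 67 (27.9%) and 302 (36.0%) cells. CD8B, the beta chain of the heterodimer on conventional cytotoxic T cells, was at 69.0 CPM at L0 and 102 at L20, and CD4 at only 23.7 CPM at L0 and 39.2 at L20, in 10 and 54 cells. Of the list of CD8 and gamma delta T cells, 8 of 9 genes were measured and 7 had 20 UMIs. GZMK, a granzyme of memory CD8 cells, was the only one at least 2-fold higher at L20, at 81.9 CPM at L0 and 190.0 at L20. BLK, a kinase of B cells and of some T cells, was the only one lower, at 43.1 CPM at L0 and 16.4 at L20. CD8A and CD4 were within 2-fold, as were CD8B, CRTAM and EOMES. Beside this list, 9.52% of all 7234 genes tested were at least 2-fold higher at L20 and 6.97% lower.

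Genes of helper and regulatory T cells leaned to mature milk as a list, but not all of them did. Of 12 list genes, 11 had 20 UMIs, 6 were at least 2-fold higher at L20 and 0 lower, with a median ratio of 2.16. CD40LG, the ligand by which helper cells stimulate B cells, was at 60.3 CPM (40.1 to 87.2) at L0 and 130.4 (114 to 149) at L20. ICOS, a costimulatory receptor, was at 34.5 CPM at L0 and 75.4 at L20 and TNFRSF4 (OX40) at 21.5 CPM (10.3 to 39.6) at L0 and 98.2 (83.9 to 114) at L20. CTLA4, an inhibitory receptor rich on regulatory T cells, had 1 UMI in 1 L0 cell and 49 UMIs in 31 L20 cells, a ratio of 13.3 with an interval of 2.28 to 536. TNFRSF18 (GITR), a receptor of activated and regulatory T cells, was at 23.7 CPM at L0 and 58.5 at L20. FOXP3, which defines regulatory T cells, had 0 UMIs at L0 and 9 in 9 cells at L20. At L0, 0 of 240 cells allows a share of up to 1.25% of cells with a FOXP3 UMI, taken as 3 cells of 240, and this limits cells with a UMI, not cells that express the gene. IKZF2 (209 CPM at L0 and 107 at L20), IL2RA (73.3 and 62.0) and GATA3 (88.3 and 71.9) were within 2-fold on the side of L0. TBX21 (38.8 CPM at L0 and 53.2 at L20) was within 2-fold as well.

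Genes of NK receptors leaned the other way. Of 18 list genes, 11 were measured and all 11 had 20 UMIs. Of these, 5 were at least 2-fold lower at L20 with 1 higher (PRF1, which stands in this list and in the granule list). NCR1, an activating receptor of NK cells, was at 168 CPM (133 to 209.8) at L0 and 28.1 (20.7 to 37.2) at L20, 5.99-fold lower at L20 with an interval of 4.13 to 8.77. KLRK1 was at 871 CPM (788 to 959.7) at L0 and 365 (337 to 395) at L20, and 56.7% and 29.2% of members had a UMI of it. FCER1G, the adaptor of activating NK receptors and of Fc receptors, was at 787 CPM (708 to 872) at L0 and 205 (184 to 227) at L20, against a free level of 29.7 and 33.5. KLRD1 (CD94) was at 99.1 CPM at L0 and 28.1 at L20 and CD244 (2B4) at 108 CPM at L0 and 33.3 at L20. KLRB1 (259 CPM at L0 and 322 at L20), CD226 (109.9 CPM at L0 and 120.4 at L20) and NKG7 (1052 CPM at L0 and 940.1 at L20) were within 2-fold.

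Cytotoxic granule genes were expressed in both milks, and GZMH, PRF1, GZMK and GZMM, which the rule did not use, were at a higher level in mature milk. Of 18 list genes, 15 were measured and all 15 had 20 UMIs, with 5 at least 2-fold higher at L20 and 0 lower. The count holds the rule genes GNLY, GZMA_2, CTSW and CST7, of which GNLY is among the 5, and their values only describe the choice of cells. GZMH, granzyme H, was at 364 CPM (311 to 423) at L0 and 1066 (1018 to 1116) at L20 and was 2.93-fold higher at L20 (interval 2.50 to 3.45). GNLY, granulysin, a membrane-disrupting peptide, was at 625 CPM (555 to 701) at L0 and 1522 (1464 to 1581) at L20. PRF1, perforin, was at 109.9 CPM at L0 and 240.3 at L20, and GZMM, granzyme M, at 25.9 CPM at L0 and 69.6 at L20. NKG7, a granule membrane protein, and SRGN, the proteoglycan that packs granule proteins (2054 CPM at L0 and 2173 at L20), differed by less than 1.2-fold. The granzyme A rows lay on opposite sides, GZMA_2 higher at L20 and GZMA lower, at 241 CPM at L0 and 127 at L20. RefSeq places 2 GZMA genes on chromosome 16 of Sscrofa11.1 that match at 77.9% of 759 aligned bases. Whether reads of 1 copy were counted on the other was not tested, and both values carry that limit.

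The plot of levels by gene group shows chosen genes of each group, not whole lists. The plotted NK receptor genes (KLRK1, KLRD1, NCR1, CD244 and FCER1G), the 4 plotted residence genes (ZNF683, ITGA1, CXCR6 and RGS1) and the plotted heat shock genes lie further right at L0. The plotted interferon, helper (CD40LG, TNFRSF4, CTLA4 and ICOS) and naive genes (IL7R, S1PR1, LEF1 and CCR7) lie further right at L20. List genes within 2-fold, such as KLRB1, CD226, IKZF2, IL2RA, GATA3 and TCF7, are not plotted.

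**Figure D2:**
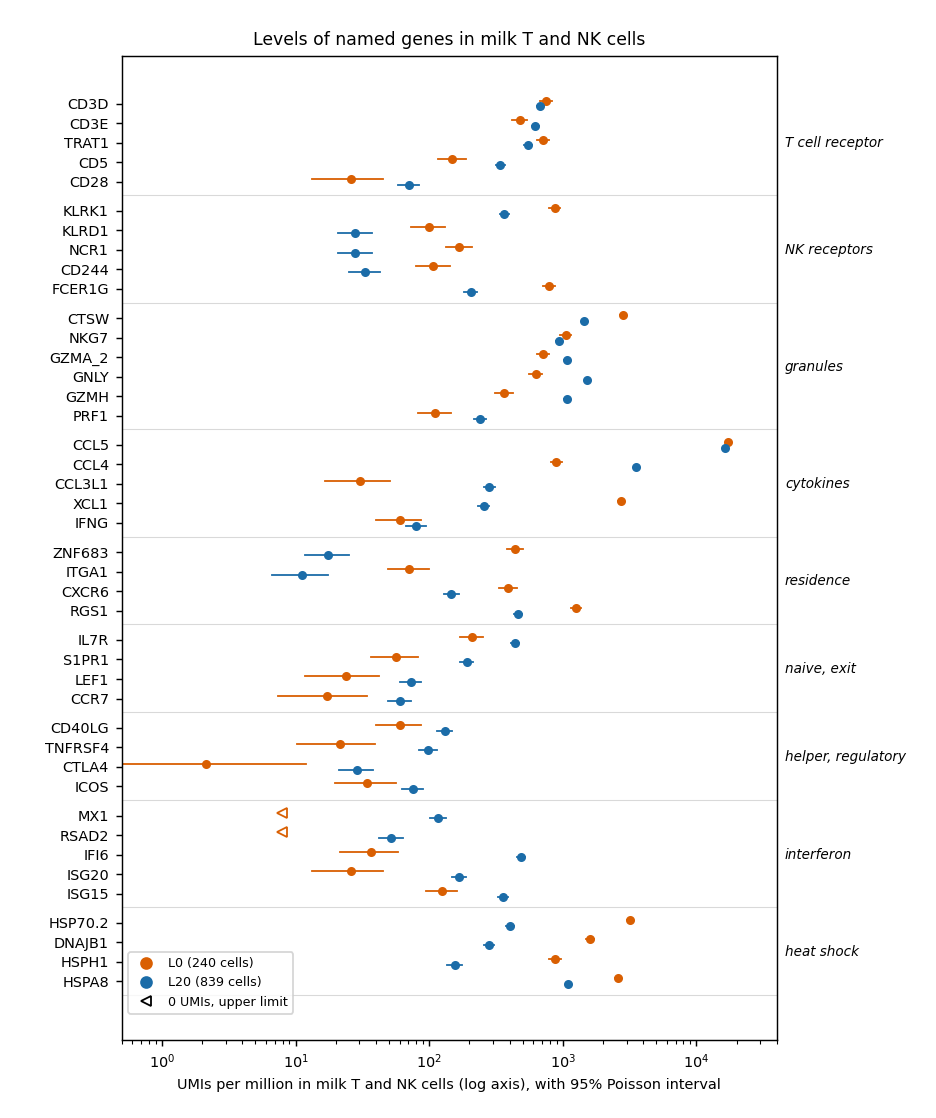
Levels of named genes in UMIs per 1000000 (log axis) in the 240 members of L0 (orange) and the 839 of L20 (blue), 1 library each; dots are levels, bars exact 95% Poisson intervals, and open triangles the upper limit where 0 UMIs were found. Intervals are apart for XCL1, ZNF683 and NCR1 (higher at L0) and for GNLY, S1PR1 and IFI6 (higher at L20), while CCL5, at 17252 and 16284, lies at nearly the same place in both.

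CCL5, a chemokine that draws T cells and macrophages, was the most abundant of the named genes in the members. It was at 17252 CPM (16876 to 17634) at L0 and 16284 (16093 to 16476) at L20 and was seen in 86.7% and 82.8% of the cells, against 826 and 1944 CPM in other milk cells. XCL1, a chemokine that draws cross-presenting dendritic cells, was at 2722 CPM (2574 to 2876) at L0 and 255 (232 to 281) at L20, 10.7-fold lower at L20. XCL1 UMIs were seen in 150 of 240 cells (62.5%) at L0 and 97 of 839 (11.6%) at L20. XCL1 is a rule gene, and its log2 ratio was -3.41 with all rule genes and -3.62 when the rule was applied without it.

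Of 23 cytokine genes, 20 were measured and 13 had 20 UMIs, with 5 at least 2-fold higher at L20 and 2 lower. The 2 lower were IL17F and XCL1, a rule gene. CCL4, a chemokine that draws monocytes and T cells, was at 896 CPM (812 to 987) at L0 and 3546 (3458 to 3637) at L20, although the share of cells with a UMI was 36.7% and 40.4%. Other milk cells had 694 and 2997 CPM of CCL4 too. CCL3L1, a related chemokine, was at 30.2 CPM at L0 and 282 at L20, 9.36-fold higher at L20, and at 118 and 395 CPM in the other cells. IFNG, the interferon of T and NK cells, was at 60.3 CPM at L0 and 80.1 at L20 and TNF at 58.2 CPM at L0 and 115 at L20, both within 2-fold. IL17F, a cytokine of mucosal defence, had 24 UMIs at L0 and 19 at L20, a ratio of 0.215, in 7 and 5 cells, and IL22 had 30 UMIs in 3 cells of L20 and 0 at L0. IL2, IL4 and IL21 had 0, 0 and 0 UMIs at L0 and 1, 3 and 1 at L20.

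Genes of tissue residence split into groups. Of 13 list genes with 20 UMIs, 5 were at least 2-fold lower at L20 and 2 higher. ZNF683, the gene of HOBIT, a factor of resident lymphocytes, was at 439.6 CPM at L0 and 17.5 at L20, 25.1-fold lower at L20. It was seen in 84 L0 cells (35%) and 22 L20 cells (2.62%). ITGA1 (CD49a), which binds collagen, had 33 UMIs at L0 and 19 at L20 (ratio 0.156). CXCR6, a receptor of resident cells, was at 390.0 CPM at L0 and 147 at L20, and RGS1, which dampens chemokine signals, at 1254 CPM at L0 and 463 at L20. ITGAE (CD103), which binds E-cadherin of epithelium, was at 77.6 CPM at L0 and 46.8 at L20, and CD69, which keeps cells in tissue, at 496 CPM at L0 and 664 at L20, both within 2-fold. PRDM1 (BLIMP1), at 38.8 CPM at L0 and 81.3 at L20, and BHLHE40, at 159 CPM at L0 and 516 at L20, went to the side of L20.

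Genes of naive and recirculating lymphocytes leaned to mature milk. All 10 list genes had 20 UMIs, 6 were at least 2-fold higher at L20 and 0 lower, with a median ratio of 2.09. IL7R, the interleukin-7 receptor that keeps naive and memory T cells alive, was at 209 CPM (169.5 to 255) at L0 and 437 (407 to 469.8) at L20, in 41 and 336 cells. S1PR1, the receptor by which lymphocytes leave tissue, was at 56.0 CPM (36.6 to 82.1) at L0 and 192 (172 to 214) at L20, in 6.25% and 23.6% of cells. LEF1, a factor of naive T cells, was at 23.7 CPM at L0 and 73.1 at L20, CCR7, the lymph node homing receptor, at 17.2 CPM at L0 and 60.2 at L20, and SATB1, a chromatin organiser of T cells, at 127 CPM at L0 and 264 at L20. BACH2, which holds T cells in a resting state, was at 4.31 CPM at L0 and 26.9 at L20. TCF7, a factor of naive and memory T cells (123 CPM at L0 and 97.1 at L20), was within 2-fold and on the side of L0.

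Of the 17 homing and adhesion genes, 16 were measured and 11 had 20 UMIs, with 2 at least 2-fold higher at L20 and 0 lower. Over all 7234 genes tested, 9.52% were at least 2-fold higher and 6.97% lower. CCR2, at 58.2 CPM at L0 and 139 at L20, and GPR15, a receptor that guides T cells to mucosa, were the 2. GPR15 was at 19.4 CPM at L0 (9 UMIs) and 40.9 at L20 (70 UMIs), so its ratio rests on few UMIs. CXCR3 (142 CPM at L0 and 247 at L20), ITGA4 (226 CPM at L0 and 232 at L20) and ITGB7 (101 CPM at L0 and 168 at L20), the last 2 of which pair in the gut-homing integrin, were within 2-fold. CCR9 had 4 and 8 UMIs, and CCR10, the receptor for the epithelial chemokine CCL28, 0 and 2.

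Shares of cells with a UMI depend on depth, so each member with at least 1000 UMIs was thinned to 1000, which left 223 L0 and 763 L20 cells. XCL1 was then seen in 57.0% and 9.44% of cells, ZNF683 in 23.8% and 1.70%, and S1PR1 in 2.69% and 16.1%. Direction was kept for the 16 genes plotted.

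**Figure D3:**
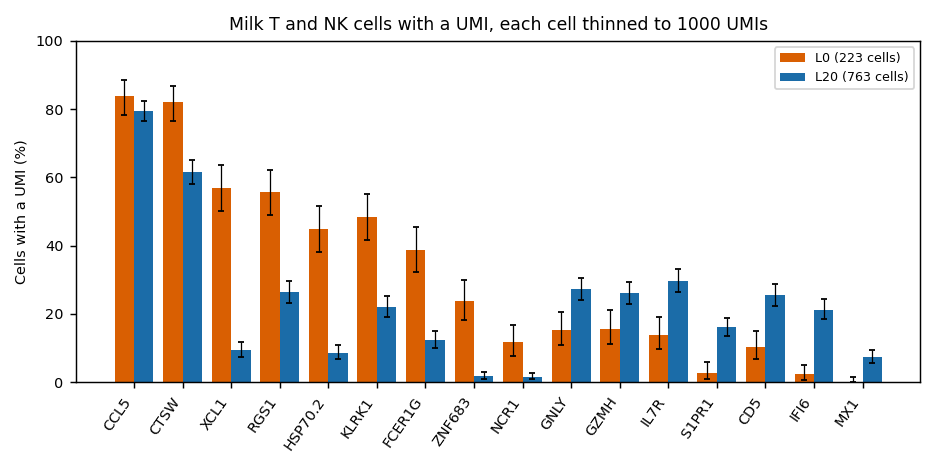
Percent of milk T and NK cells with at least 1 UMI of a gene after each cell was thinned to 1000 UMIs, at L0 (orange, 223 cells) and L20 (blue, 763 cells), with exact 95% binomial intervals. XCL1 is seen in 57.0% of L0 and 9.44% of L20 cells and IL7R in 13.9% and 29.6%, while CCL5 is seen in 83.9% and 79.6%.

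Among inhibitory receptors and genes of exhaustion, 4 of 9 were at least 2-fold higher at L20 and 2 lower. Beside CTLA4, PDCD1 (PD-1) was at 10.8 CPM at L0 and 22.2 at L20 and HAVCR2 (TIM-3) had 1 UMI at L0 and 27 at L20. CISH, a target of STAT5 that also stands in this list, was at 103 CPM at L0 and 254 at L20. LAG3 was at 64.6 CPM at L0 and 128 at L20 and TIGIT at 43.1 CPM at L0 and 32.2 at L20. CD96, a receptor that competes for the ligand of CD226, was at 455 CPM (395 to 520.3) at L0 and 146 (128 to 165) at L20, and TOX at 157 CPM at L0 and 65.5 at L20, both lower at L20.

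Of 16 genes of activation, 5 were at least 2-fold lower at L20 and 1 higher. The orphan receptors NR4A1 (189.6 CPM at L0 and 21.0 at L20), NR4A2 (343 CPM at L0 and 103 at L20) and NR4A3 (66.8 CPM at L0 and 31.0 at L20), which are induced within hours of receptor signals, were all on the side of L0. DUSP1 was at 655 CPM at L0 and 274 at L20 and CD83 at 25.9 CPM at L0 and 8.77 at L20. FOS (416 CPM at L0 and 447 at L20), JUN (636 CPM at L0 and 477 at L20) and NFKBIA (418 CPM at L0 and 521 at L20) were within 2-fold, while TNFAIP3 (A20), an inhibitor of NF-kappa B, was at 84.0 CPM at L0 and 194 at L20.

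Heat shock genes, which encode chaperones of unfolded proteins, were lower in mature milk in 5 of 9 measured genes and higher in 0, with a median ratio of 0.427. DNAJB1 was at 1599 CPM (1486 to 1718) at L0 and 282 (257 to 308) at L20, in 53.3% and 13.9% of cells. HSPH1 was at 877 CPM at L0 and 155 at L20, HSP90AA1 at 1614 CPM at L0 and 577 at L20, HSPA8 at 2586 CPM at L0 and 1103 at L20, and DNAJA1 at 797 CPM at L0 and 329 at L20. HSP70.2, outside the list, was at 3157 CPM (2997 to 3323) at L0 and 403 (374 to 435) at L20, and BAG3, its cochaperone, at 274 CPM at L0 and 25.7 at L20. In the other milk cells the list had a median ratio of 0.681 and HSP70.2 was at 2596 and 610.2 CPM.

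Interferon-stimulated genes leaned to mature milk. Of 16 list genes, 13 were measured and 12 had 20 UMIs. Of these 12, 6 were at least 2-fold higher at L20 and 0 lower, with a median ratio of 2.38. IFI6, an antiviral protein, was at 36.6 CPM (21.3 to 58.7) at L0 and 486 (453 to 520.0) at L20, in 9 of 240 and 249 of 839 cells. MX1, a GTPase that blocks viruses, had 0 UMIs at L0 and 200 at L20, and with 3 UMIs taken as the floor at L0 it was at least 18.1-fold higher at L20. RSAD2 (viperin) had 0 and 89 UMIs, at least 8.05-fold higher on the same floor. ISG15, a ubiquitin-like modifier, was at 125 CPM at L0 and 357 at L20, ISG20, an exonuclease, at 25.9 CPM at L0 and 167 at L20, and MX2 at 8.62 CPM at L0 and 44.4 at L20. IFIT1 (77.6 CPM at L0 and 154 at L20), OAS2 (36.6 CPM at L0 and 47.4 at L20) and IRF7 (19.4 CPM at L0 and 29.2 at L20) were within 2-fold. In the other milk cells the list had a median ratio of 2.91, and MX1 was there at 5.19 and 125 CPM. In the members, the free level of MX1 was 2.79 CPM at L20.

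A known element of such promoters is the interferon-stimulated response element (ISRE), which was searched as GAAANNGAA on both strands in 250 bases before to 50 bases after each RefSeq gene start of Sscrofa11.1. It stood in 10 of 16 list promoters and in 1554 of 19572 (7.94%) promoters of protein-coding genes. The stretches below, read on the strand of the gene, are shown as examples of list genes that were at least 2-fold higher at L20 and hold the element, which genes within 2-fold such as OAS2 hold too. Capitals mark only the first match in each window, and where they end in TTTC it lies on the other strand. The searched windows held 4 matches for ISG15, 1 for RSAD2 and 2 for IFI6, and further matches are not marked.

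ISG15: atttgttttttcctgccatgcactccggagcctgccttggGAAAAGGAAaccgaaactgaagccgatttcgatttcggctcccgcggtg
RSAD2: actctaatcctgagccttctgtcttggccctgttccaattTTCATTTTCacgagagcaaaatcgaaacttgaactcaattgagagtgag
IFI6: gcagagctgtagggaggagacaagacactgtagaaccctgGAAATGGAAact

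The ISG15 stretch lies at chr6:63363027-63363115 (plus strand) and its marked match starts 134 bases before the gene start. That of RSAD2 lies at chr3:128897890-128897978 (minus strand), 129 bases before, and that of IFI6 at chr6:84858073-84858124 (minus strand), 12 bases before. A match is a description of letters and no site of binding was measured.

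Genes of dividing cells differed in how many members held them. Of 12 list genes with 20 UMIs, 6 were at least 2-fold lower at L20 and 0 higher. TOP2A, a topoisomerase of the cell cycle, had 43 UMIs in 4 L0 cells and 22 in 7 L20 cells, and UBE2C 40 in 3 and 29 in 6, so these levels rest on those cells. STMN1, a tubulin binder, was at 347 CPM at L0 and 118 at L20, in 20.4% and 7.99% of cells. CKS2, a partner of cyclin-dependent kinases that is not in this list and was named for its low ratio of L20 to L0, was at 810.2 CPM at L0 and 92.4 at L20 and in 40.4% and 10.7% of cells. HMGB2 (606 CPM at L0 and 457 at L20) and PCNA (84.0 CPM at L0 and 105 at L20) were within 2-fold.

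Of 18 cytokine receptor and JAK-STAT genes with 20 UMIs, 14 were within 2-fold, 3 higher at L20 and 1 lower, beside 6041 of 7234 within 2-fold over all genes tested. IL2RB (340.5 CPM at L0 and 234 at L20), IL2RG (595 CPM at L0 and 661 at L20), JAK1 (569 CPM at L0 and 625 at L20) and STAT4 (159 CPM at L0 and 194 at L20) were among the 14. The 3 higher were IL7R, IL18RAP, at 17.2 CPM at L0 and 59.0 at L20, and STAT5A, at 23.7 CPM at L0 and 54.4 at L20. SOCS1, an inhibitor of JAK kinases, was at 183 CPM at L0 and 70.7 at L20, the only one lower at L20. All 8 survival genes, all 5 class I and all 4 class II genes with 20 UMIs were within 2-fold, among them B2M (4506 CPM at L0 and 5734 at L20), CD74 (4096 CPM at L0 and 4675 at L20) and BIRC3 (399 CPM at L0 and 467 at L20).

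The most abundant named genes other than mitochondrial and ribosomal protein genes were CCL5, TMSB4X (14940 CPM at L0 and 11893 at L20), PTMA, TMSB10, B2M, UBB, CD74 and ACTB, and all of them were within 2-fold. Rows named ERBB3 (5079 CPM at L0 and 5525 at L20) and FLT3LG (4368 CPM at L0 and 4809.8 at L20) ranked among them with UMIs in over 99% of cells. RefSeq gives FLT3LG as another name of RPL13A and ERBB3 as a neighbour of RPS26, both ribosomal protein genes, so these 2 names are uncertain. Of the 10 largest ratios, FABP4 and CTSL had L20 free levels of 64.0 and 47.5 CPM and UMIs in 102 and 64 L20 cells. C1QB had 60 UMIs in 4 L20 cells, and ADIRF 157 in 30. CMBL (1 UMI at L0 and 49 at L20) and MAP3K14, the kinase of the alternative NF-kappa B pathway (2 and 62), were spread over 40 and 54 L20 cells. Of the 10 smallest ratios, LTF (103 CPM at L0) lay near its free level of 84.3 CPM. RAMP3 was at 179 CPM at L0 and 8.19 at L20 with 297 and 16.8 CPM in the other cells, CRHR1 at 109.9 CPM at L0 and 10.5 at L20 and CENPF at 99.1 CPM at L0 and 13.4 at L20.

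A CD3D or CD3E UMI was seen in 192 of 240 members (80.0%, 74.4 to 84.9%) at L0 and in 740 of 839 (88.2%, 85.8 to 90.3%) at L20. At 1000 UMIs per cell the shares were 143 of 223 (64.1%) and 550 of 763 (72.1%). A cell without such a UMI is not thereby an NK cell, since both genes can be missed at this depth. These cells had a UMI of at least 3 of the other 6 rule genes, so those genes are not compared here. The rule shapes the other genes of this split too, since XCL1 was seen in more of the L0 cells without CD3 (36 of 48 against 114 of 192) and KLRK1 and ZNF683 were seen more often with XCL1. The shares that follow are therefore descriptions of the chosen cells. NCR1 was seen in 13 of 48 L0 members without CD3 (27.1%) and in 24 of 192 with it (12.5%), and at L20 in 11 of 99 and 15 of 740. KLRK1 was seen in 77.1% and 51.6% at L0 and in 43.4% and 27.3% at L20. ZNF683 was seen in 24 of 48 and 60 of 192 at L0. Genes of T cells did not all go 1 way. CD5 was seen in more of the cells with CD3, with 4.17% and 20.3% at L0 and 25.3% and 39.1% at L20, and so was IL7R, with 4.17% and 20.3%, then 23.2% and 42.3%. TRAT1 was seen in more of the cells without CD3, with 70.8% and 59.4% at L0 and 60.6% and 52.0% at L20. LCK was at 18.8% and 32.3% at L0 and at 37.4% and 37.7% at L20.

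**Figure D4:**
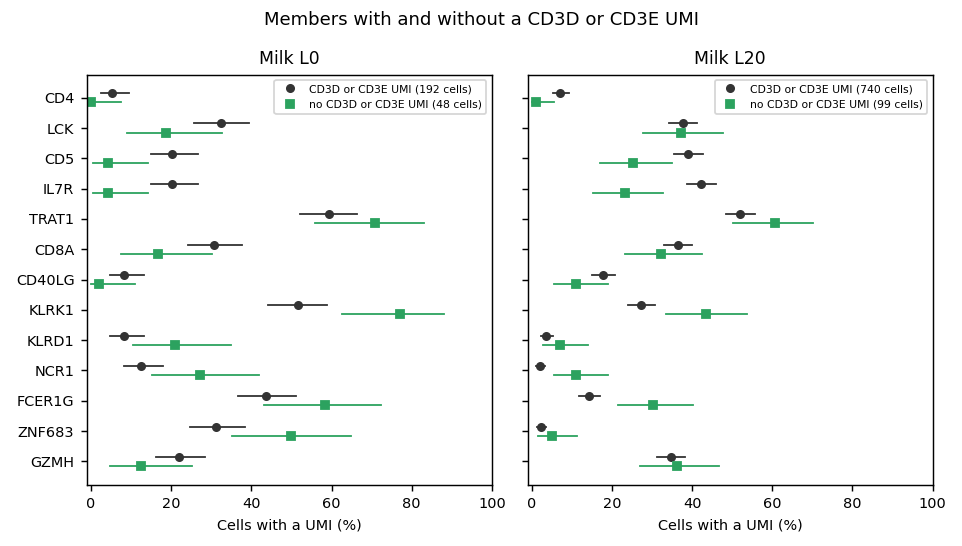
Percent of members with a UMI of each gene, split by whether a CD3D or CD3E UMI was seen (black circles) or not (green squares), at L0 (left) and L20 (right), with exact 95% binomial intervals. CD5 and IL7R lie higher with CD3, and NCR1, KLRK1 and TRAT1 higher without it, in a split that the rule genes shape.

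Genes that the rule did not use also differed between the libraries within the cells that had a CD3 UMI. There, ZNF683 was at 412 CPM at L0 and 16.3 at L20, NCR1 at 142 and 14.3, and KLRK1 at 754 and 329. GZMH was at 399 and 1112 CPM, S1PR1 at 67.4 and 200.4, and IFI6 at 31.1 and 503. In these cells 706 of 6960 genes were at least 2-fold higher at L20 and 490 lower. Over all members the counts were 689 and 504 of 7234, a similar share.

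Some genes were seen together in cells. Of the 150 L0 cells with an XCL1 UMI, 72 (48.0%) had a ZNF683 UMI and 110 (73.3%) a KLRK1 UMI, against 12 (13.3%) and 26 (28.9%) of the 90 without. GNLY went the other way, in 12.7% of the cells with XCL1 and 33.3% of those without at L0, and in 14.4% and 34.8% at L20. Both are rule genes, so the rule shaped these counts. NCR1 came with FCER1G, in 34 of 37 cells at L0 and 22 of 26 at L20, against 78 of 203 and 114 of 813 cells without NCR1. PRF1 was seen in 8 of 49 cells with GNLY and 27 of 191 without at L0, and in 38.2% of 272 and 14.1% of the rest at L20. At L20, IFI6 was seen in 54.5% of the 101 cells with MX1 and 26.3% of the rest. CD40LG was seen in 19 of 54 L20 cells with CD4 (35.2%) and in 15.8% of the others. CCL4 was seen in 13 of 19 IFNG cells at L0 and 40 of 52 at L20. All 3 IL22 cells and all 12 IL17F cells had a CD3 UMI. These counts are given as descriptions, since deeper cells hold more of every gene.

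The same rule found 525 nuclei in the glands, from 3 to 148 per gland. The 8 glands with at least 20 (504 nuclei) were compared with the 2 milk libraries by the quasi-likelihood test of edgeR on summed UMIs. Cells and nuclei were prepared differently, so milk against gland and cytoplasm against nucleus cannot be told apart, and the rule genes set the choice on both sides. Of 4116 genes tested, 1221 (29.7%) were called higher in milk (adjusted p under 0.05, over 2-fold) and 912 (22.2%) lower. Scaling decided much of this split. The TMM factors were 0.353 and 0.380 for milk and 1.24 to 1.35 for glands, and with total counts alone the median gene moved by 1.81 on the log2 scale, 663 genes were called higher and 2579 lower. The 663 higher calls and the 912 lower calls were common to both scalings. Fits without 1 of the milk libraries leave 1 library on that side, so nothing is concluded from their counts of calls. In gland G90 replicate 1, 101 of 148 nuclei had exactly 3 rule genes, and in gland PI7 replicate 1, 76 of 97. EHF, of the milk epithelium list, was at 46.0 to 409 CPM in the 8 glands and at 21.5 and 2.92 in milk. Of 9 tested genes of that list, 4 were called higher in milk and 1 lower with TMM. Whether nuclei of other cell types are among the gland nuclei was not tested.

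Most tested genes of cytotoxic granules and chemokines were called higher in milk under both scalings. CCL5 was at 17252 and 16284 CPM in milk and at 142 to 704 CPM (median 457) in the glands, without overlap, a log2 difference of 6.78 (SE 0.54, edgeR adjusted p = 9.04e-10) with TMM and 4.96 with total counts. NKG7 was at 23.0 to 119 CPM in the glands, below both milk libraries, with a log2 difference of 5.59 (edgeR adjusted p = 6.56e-11). SRGN was at 35.4 to 202 CPM in the glands, with a log2 difference of 5.54 (edgeR adjusted p = 1.98e-10), also without overlap. In all, 12 of 13 tested granule genes were called higher with TMM and 10 with total counts, and 0 lower with either. Beside them, 1221 of all 4116 genes tested were called higher with TMM and 663 with total counts. GNLY, GZMA_2, CTSW and CST7, which the rule used, are among them and support nothing here. Of the 6 cytokine genes tested, 6 and 5 were called higher. XCL1, a rule gene, and FLT3LG, a row whose name is uncertain, are among both. Of 11 NK receptor genes, 7 were called higher with TMM, and 6 higher and 2 lower with total counts.

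Activation and heat shock genes were higher in milk as well. All 10 tested activation genes were called higher with TMM and 9 with total counts, and all 9 heat shock genes with both. Over all 4116 genes tested these calls were 1221 and 663. JUN was at 19.2 to 128 CPM in the glands against 636 and 477 in milk, a log2 difference of 5.08 (SE 0.41, edgeR adjusted p = 8.94e-10). DNAJB1 was at 0 to 64.0 CPM in the glands, a log2 difference of 6.71 (edgeR adjusted p = 6.61e-10), and its L20 milk level of 282 CPM was also above all 8 glands. CD69 was at 0 to 96.9 CPM in the glands and differed by 5.01 (edgeR adjusted p = 4.46e-10).

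T cell signalling genes did not give 1 direction. Of 13 tested genes of the receptor list, 6 were called higher and 2 lower with TMM, and 0 and 6 with total counts. Over all 4116 genes tested, 1221 were called higher and 912 lower with TMM, and 663 and 2579 with total counts. THEMIS was lower in milk with both, at 79.6 to 615 CPM in the glands, a log2 difference of -1.52 (edgeR adjusted p = 0.0179) and -3.34 with total counts. BACH2 was lower too, at 0 to 288 CPM (median 222) in the glands, with overlap, by -1.77 (edgeR adjusted p = 0.0267) with TMM and -3.61 with total counts. CD3E was at 644 to 1657 CPM in the glands, above both milk libraries, yet its log2 difference was 0.65 with TMM (edgeR adjusted p = 0.166) and -1.17 with total counts, so no direction is given. ZNF683 was at 12.8 to 253 CPM in the glands, a range that held the L20 milk level and lay below the L0 one, and its call as higher with TMM (2.94) was lost without the L0 milk library (-0.55).

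**Figure D5:**
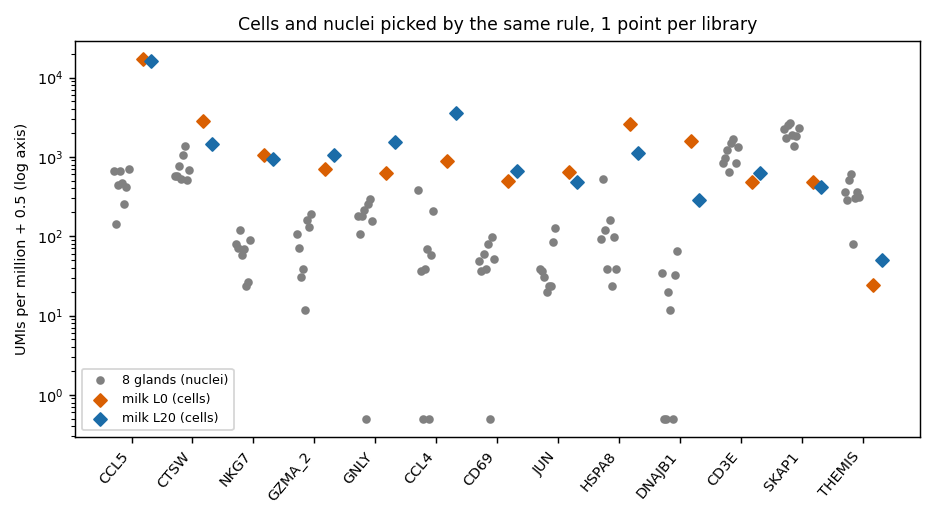
Level in UMIs per 1000000 plus 0.5 (log axis) of named genes in cells or nuclei picked by the same rule, with 1 point per library: 8 glands (grey, nuclei), milk L0 (orange) and milk L20 (blue). CCL5, NKG7 and JUN lie above all glands in both milk libraries, while SKAP1 and THEMIS lie below all glands.

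The largest differences were of genes that other milk cells also express. CXCL8, a neutrophil chemokine, was at 1532 and 1499 CPM in milk and 0 to 23.0 in the glands (log2 10.07 with TMM), against a free level of 299.9 and 138 CPM. S100A12 (9.59), TGM3, a transglutaminase (8.81), the ribosomal protein gene RPS29 (8.38) and HSP70.2 (8.33) followed. The genes lowest in milk, COL3A1 of fibroblasts, CTNND1, CACNA2D3, TANC1 and PTPRF, had 0 UMIs in both milk libraries and medians of 87.1, 145, 104, 93.9 and 88.4 CPM in the glands.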

How the data were processed

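The authors captured single cells of milk and nuclei of snap-frozen glands with GEXSCOPE kits, and deposited raw UMI counts per gene and barcode, made with CeleScope and aligned to Sscrofa11.1 (per the labels). The sources used here name no annotation release. Cells were kept at 300 or more genes and 25% or less mitochondrial UMIs, over 13 mitochondrial genes. Member UMIs were summed per library and scaled to UMIs per 1000000, and genes with at least 20 UMIs over both milk libraries were compared. Intervals are exact 95% intervals for counting error, and a count of 0 was bounded with 3 UMIs. Barcodes were not filtered for doublets. Milk and gland sums were compared with the quasi-likelihood test of edgeR 4.0.16 in R 4.3.3 with TMM scaling and Benjamini-Hochberg adjustment, after the filter of edgeR on low counts, and DESeq2 1.42.0 was an alternative. Cells were handled in Python 3.11.15 with scanpy 1.11.5.

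Of 28779 gene identifiers, 15476 had a symbol in the files and 640 were named from RefSeq. The members and gene lists were chosen with earlier results of these data known. Text names the rule genes, list genes with 20 UMIs or a defining marker near 0, the 10 largest and 10 smallest ratios among genes with 50 UMIs and intervals apart, the 10 most abundant genes, and 5 genes at each end of the milk and gland test. Gland L0 replicate 2 (18 nuclei) and gland L20 replicate 1 (3 nuclei) were left out. Tissue sections were not analysed here. Separate animals are given for the glands only. Some list genes are not reported here.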

Additional observations from a re-analysis of the deposited data

How the results depend on the processing

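The share of members was 1.66% at L0 and 7.48% at L20 with at least 2 rule genes, 1.01% and 3.95% with at least 4, and 2.39% and 12.7% (ratio 5.33) in cells of 500 genes or more with 10% mitochondrial UMIs or less. With at least 50 UMIs, 337 of 4882 genes were 2-fold higher and 217 lower at L20, and with intervals apart 245 and 283 of 7234. Thinned to 1000 UMIs, 494 of 4508 genes were higher and 310 lower, so fewer genes were compared there. Against the glands, higher and lower calls were 2442 and 2148 with at least 2 rule genes, 2995 and 1718 with no filter on low counts, 1905 and 1734 with at least 50 nuclei per gland, 673 and 463 with thinning, and 663 and 2579 with total counts. Leaving out 1 library gave 1080 to 1281 higher and 316 to 977 lower calls, with 316 without milk L20 and 569 without milk L0. The cause was not tested, beyond the smaller number of cells or genes in some settings. The ranges for leaving out 1 library include the fits without a milk library. These fits leave 1 library on the milk side, so nothing is concluded from their counts. Total counts, members with a CD3 UMI, the rule without XCL1, members without myeloid markers and removal of high doublet scores were chosen after seeing the data.

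Between stages, the deviations of same-numbered glands correlated at 0.081 (G90 and PI2), 0.021 (G90 and PI7) and -0.13 (PI2 and PI7) over 4111 genes. Glands of L0 and L20 were not compared in this way. With as few as 21 nuclei in a gland, these values cannot decide whether the replicate numbers pair the glands. The replicate block gave 1174 higher and 822 lower calls.

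With no exclusion by the 4 genes, CD68 turned to a log2 ratio of -0.55 between L20 and L0. Between milk and gland, total counts turned ITGB7 to -0.63, TGFB1 to -0.57, LCK to -0.32, RAB27A to -0.79, CTSS to -0.48, ZAP70 to -0.76, REL to -0.73, GATA3 to -0.63, SATB1 to -0.50, CD6 to -0.65, TCF7 to -0.10 and RUNX3 to -0.71. Thinning turned GATA3 to -0.23, and leaving out 1 library moved ZNF683 between -0.55 (without milk L0) and 3.998 (without milk L20). Of the other values of single genes, 1118 of the L20 and L0 ratios stayed within counting error and 128 moved beyond it, and 2364 milk and gland values kept their direction and call while 129 lost the call. The automatic threshold of Scrublet marked 1 of 17571 cells at L0 and 0 of 14514 at L20, so removal by that threshold was not run.

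The 240 L0 members limit the L0 levels: 3 UMIs correspond to 6.46 CPM there and 1.75 CPM at L20.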

Other observations

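The glands differed in their number of members: G90 had 148 and 21, L0 had 24 and 18, L20 had 3 and 49, PI2 had 64 and 37, and PI7 had 97 and 64 nuclei. No comparison between stages was made.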
